A study of Mus musculus with 2 samples.

Results

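The 10 genes described here carry glucose from its entry into the cell to lactate: Slc2a1, Hk2, Gpi1, Pfkl, Aldoa, Pgk1, Eno1, Pkm, Ldha and Ldhb. They were found by symbol among the 32285 genes of the deposited single-cell matrices, where they fill 11 entries because Aldoa is listed under 2 gene IDs. Both groups are pancreatic tumour tissue of mice aged 6 weeks that carry the SV40 large T antigen and firefly luciferase, each under the rodent elastase I promoter, which is active in acinar cells. EL1 is that FVB/N line (EL1-Luc/EL1-Tag) and served as the control. WTg is its cross with a CAG-Mettl3 line, in which the open reading frame of Mettl3, the catalytic subunit of the m6A RNA methyltransferase, is driven by the ubiquitous CAG promoter. The Mettl3 line was made in BL/6 mice, so strain background and transgene cannot be told apart, and the sources used here give neither the number nor the sex of the animals. Each group had 1 library, so no difference was tested. Intervals are exact, at 95%, and cover counting error only.

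Glycolysis splits glucose into pyruvate in the cytosol and yields ATP without oxygen. Lactate dehydrogenase then turns pyruvate into lactate and back, as a tetramer of Ldha (muscle-type) and Ldhb (heart-type) subunits. Tissues that ferment pyruvate are known for Ldha-rich tetramers, while tissues that oxidise lactate, such as the heart, are known for Ldhb-rich ones. Many glycolysis genes are targets of the hypoxia-inducible factor HIF-1, and Slc2a1, Hk2 and Ldha are often raised in tumours.

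Of 1621 EL1 and 1488 WTg barcodes, 1113 and 905 were kept, which had at least 500 genes, at least 1000 UMIs (unique molecular identifiers, each standing for 1 captured RNA molecule) and at most 20% mitochondrial UMIs. They held 37961287 and 33007683 UMIs, with medians of 26543 and 34836 per cell. Of 15 barcodes present in both libraries, 0 were among the kept cells. Mettl3 stood at 15.1 CPM (UMIs of a gene per 1000000 UMIs of the same cells) in EL1, from 575 UMIs, and at 66.7 CPM in WTg, from 2201 UMIs, higher in the library labelled with the transgene. The labels call the cells epithelial. By marker genes, however, 49 EL1 and 66 WTg cells were immune-like, and 1 cluster of 22 EL1 and 12 WTg cells raised 9 endothelial and 8 fibroblast markers. Of the 20 clusters, 10 clusters with 1027 of 2018 cells reached no name. The named classes were split unevenly, with 502 of 516 acinar-like cells in WTg.

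The promoters of Ldha, Pgk1 and Ldhb are shown because these genes had, in turn, the highest level of the family, a level close to equal in both libraries, and the largest difference between libraries. Each runs from 250 bases before the start to 50 bases after it, read 5′ to 3′ on the gene's strand, from RefSeq on GRCm38.p6. The Ldha window is chr7:46845554-46845853 (plus strand), that of Pgk1 chrX:106186850-106187149 (plus) and that of Ldhb chr6:142507908-142508207 (minus). Capitals mark ACGTG and GCGTG, the core letters of the hypoxia response element, on either strand, where the reverse strand reads CACGT and CACGC. In CACGTG the matches of both strands overlap and were counted separately.
Ldha: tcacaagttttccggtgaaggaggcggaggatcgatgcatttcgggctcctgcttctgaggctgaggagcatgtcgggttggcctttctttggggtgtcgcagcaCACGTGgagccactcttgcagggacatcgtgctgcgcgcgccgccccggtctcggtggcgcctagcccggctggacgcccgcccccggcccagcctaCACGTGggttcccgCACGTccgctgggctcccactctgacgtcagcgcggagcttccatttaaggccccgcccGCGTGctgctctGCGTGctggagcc
Pgk1: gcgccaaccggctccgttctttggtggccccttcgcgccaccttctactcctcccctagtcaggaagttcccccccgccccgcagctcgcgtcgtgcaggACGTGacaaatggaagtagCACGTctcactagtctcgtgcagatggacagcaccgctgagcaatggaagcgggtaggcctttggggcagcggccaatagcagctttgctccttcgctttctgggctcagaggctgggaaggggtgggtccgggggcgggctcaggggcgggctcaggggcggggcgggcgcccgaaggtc
Ldhb: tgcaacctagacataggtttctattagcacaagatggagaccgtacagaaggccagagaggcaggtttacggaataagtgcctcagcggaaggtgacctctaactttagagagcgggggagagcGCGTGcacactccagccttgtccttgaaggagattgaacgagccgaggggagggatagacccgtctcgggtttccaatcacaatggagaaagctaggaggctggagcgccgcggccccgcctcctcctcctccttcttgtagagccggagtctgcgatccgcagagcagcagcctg
The Ldha window shown held 7 matches (5 ACGTG and 2 GCGTG), that of Pgk1 2 ACGTG, and that of Ldhb 1 GCGTG. A second Ldha entry, chr7:46846832-46847131, is not shown and held only 2 matches, both GCGTG. Over all 32851 RefSeq promoters of this length, 43.8% held at least 1 match and 0.301% held 7 or more. Promoter entries were found for 10 of 10 genes, and 9 of them had a match in at least 1 entry, with none in that of Gpi1. Counted by entry, as the 43.8% is, 13 of 16 had a match. A match is a run of letters and says nothing of binding.

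In both libraries the same enzymes led. Ldha was highest, with 17980 UMIs (474 CPM) in EL1 and 11137 UMIs (337 CPM) in WTg, and Aldoa, which cleaves fructose-1,6-bisphosphate, followed with 344 and 266 CPM. Hk2, the inducible hexokinase, was among the lowest, with 4.72 and 7.76 CPM. Because the libraries read RNA from its 3′ end, 1 UMI counts 1 molecule whatever its length. The 10 genes together took 0.176% of UMIs in EL1 and 0.147% in WTg.

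**Figure D1:**
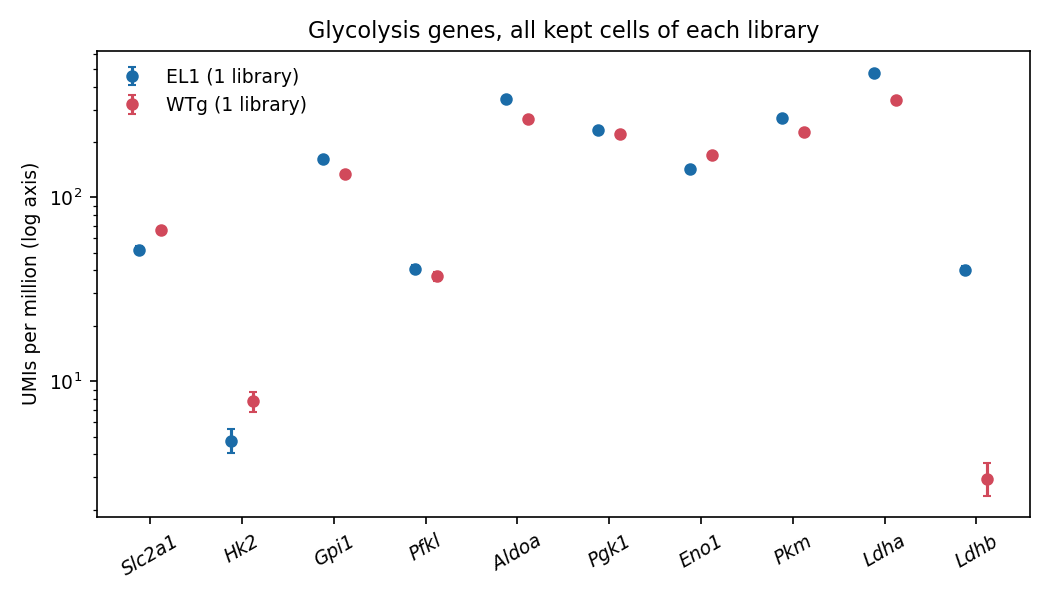
Level of each gene (CPM, log axis) summed over all kept cells of the EL1 and WTg libraries, with exact 95% Poisson intervals that cover counting error only. Ldhb was the gene that lay far apart, at 40.1 CPM for EL1 and 2.94 for WTg.

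At the entry of the pathway, both genes of the family were higher in WTg. Slc2a1, the basal glucose transporter, had levels of 51.8 CPM (EL1) and 66.3 CPM (WTg), and its ratio between them, as log2 with WTg on top, was 0.36 (0.27 to 0.45). Hk2, which traps glucose as glucose-6-phosphate, had 179 and 256 UMIs, a log2 ratio of 0.72 (0.44 to 1.002). Both intervals lay above 0, so these gaps were larger than counting error. The other hexokinase genes compared did not share one direction. Hk1 had 15.6 and 11.9 CPM (-0.39, -0.57 to -0.20) and Hkdc1 5.27 and 4.30 CPM (-0.29, -0.61 to 0.025). Hk3 was higher, at 0.659 and 1.97 CPM (1.58).

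Most of the middle steps were lower in WTg or near equal. Gpi1, which converts glucose-6-phosphate to fructose-6-phosphate, had 161 and 134 CPM (log2 ratio -0.26, -0.32 to -0.21). Pfkl, the liver-type phosphofructokinase of the committed step, had 40.6 and 37.2 CPM (-0.13, -0.24 to -0.019). This ratio lay near the median of -0.14 over all genes, and ranged from -0.16 to -0.014 under the alternatives run. For Aldoa the log2 ratio was -0.37 (-0.41 to -0.33). These 3 were lower by at most 1.29-fold. Pgk1, which makes the first ATP, had 232 and 220 CPM, and its log2 ratio was -0.077 (-0.12 to -0.032) on CPM but 0.037 under TMM scaling, a scaling that trims extreme genes, so it has no direction here. Eno1, the enolase of most tissues, was higher, with 143 and 170 CPM (0.24, 0.19 to 0.30).

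At the end of the pathway the genes were lower in WTg. Pkm, whose product makes pyruvate, had 270 and 227 CPM (-0.25, -0.29 to -0.21). Ldha had a log2 ratio of -0.49 (-0.52 to -0.46), 1.40-fold lower. Ldhb had 1523 UMIs in EL1 and 97 in WTg, a log2 ratio of -3.77 (-4.08 to -3.47), 13.7-fold lower.

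Across the family, 3 genes were higher and 7 lower in WTg, where 38.2% of all genes tested were higher. Under TMM 4 of the family were higher. At least 1.5-fold, 1 gene was higher (Hk2) against a background of 15.7% of the 16167 genes tested, and 1 was lower (Ldhb) against 17.1%, so the shares were close to those of all genes. The family's median log2 ratio was -0.19, beside -0.14 over all genes. Under TMM the all-gene median shifted by 0.11, which changed the split of all genes past 1.5-fold from 2545 higher and 2758 lower to 2921 and 2063.

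Nearly all of the Ldhb in EL1 lay in 1 group of cells. Of 1523 EL1 Ldhb UMIs, 1459 (95.8%) lay in a cluster of 75 cells, all EL1 and 6.74% of its cells, led by Atp4b and Atp4a, the subunits of the gastric proton pump, and by Klk1, a tissue kallikrein. The glycolysis genes and pathway lists were left out of clustering, so Ldhb did not form this group. Only 2 of the gastric markers were raised, so the cluster was left unnamed. Ldhb stood at 453 CPM there (430 to 476) and at 1.84 CPM in all other EL1 cells, 246-fold higher. WTg kept cells had 0 UMIs of Atp4b and 41 of Atp4a.

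Without this cluster Ldhb no longer set the libraries apart in the same direction. EL1 then had 64 UMIs (1.84 CPM) against 97 (2.94 CPM) for WTg, which gives 0.67 (0.20 to 1.15) on the log2 scale. Gpi1 moved from -0.26 to -0.028 (-0.088 to 0.031), while Ldha kept a ratio of -0.45 and Aldoa of -0.36. The family's median became -0.014, beside -0.12 over all genes. Outside the family, other values moved with the cluster: its cells had a median of 7.88% mitochondrial UMIs, against 4.11% over EL1, and 2084 CPM of the acinar gene Prss2, against 20562 CPM in the remaining EL1 cells. Their part in the Ldhb level was not tested. The 49 immune-like cells of EL1 had 0 Atp4b UMIs, a small number of cells. The same 0 in WTg carries no information, since no kept WTg cell had any. Of the 75 cells, 1 was called a doublet.

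The Ldha share of all Ldha and Ldhb UMIs was 92.2% (91.8 to 92.6) in EL1 and 99.1% (98.9 to 99.3) in WTg. Without the Atp4b-led cluster it was 99.6% in EL1. Within the cluster it was 57.1% (55.5 to 58.8), so Ldhb made up much of the enzyme's RNA there and almost none elsewhere.

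Cell by cell the balance was one-sided in both libraries outside the cluster. Of cells with at least 10 Ldha plus Ldhb UMIs, 574 in EL1 and 378 in WTg, the median share was 100% in both. A share of 90% or less was found in 69 EL1 cells (12.02%, 9.47 to 14.97) and in 6 WTg cells (1.59%, 0.585 to 3.42), and 60 of the 69 lay in the cluster. After thinning each cell to 2000 UMIs, which left out 62 EL1 and 69 WTg cells as shallower, cells with at least 5 such UMIs numbered 22 and 7, and 8 and 0 of them had a share of 90% or less.

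**Figure D2:**
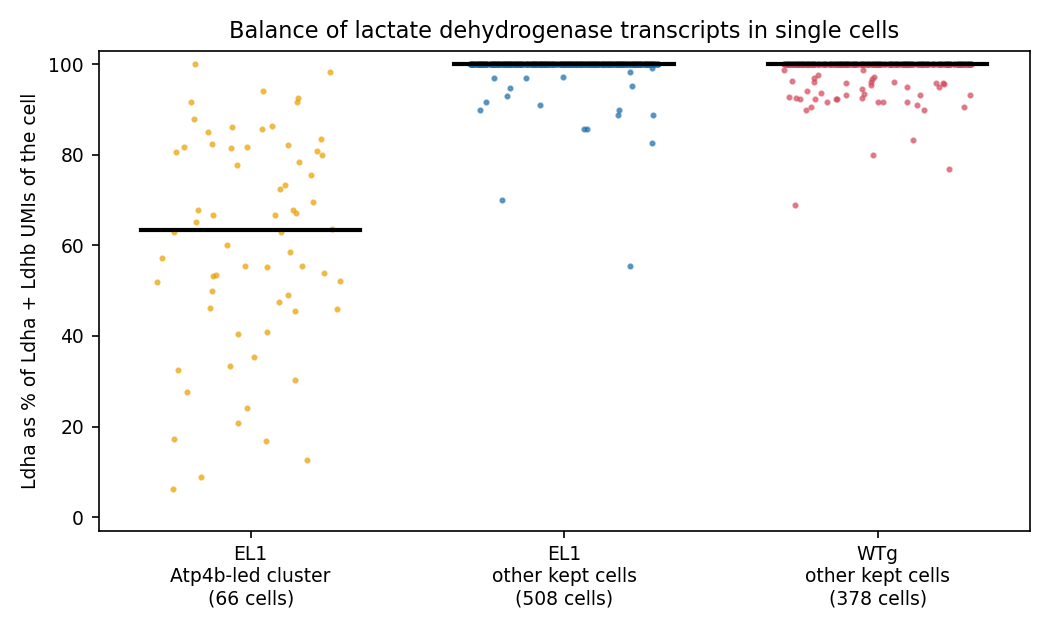
Ldha share of Ldha plus Ldhb UMIs (percent) in each cell with at least 10 such UMIs, for the Atp4b-led cluster, the other EL1 cells and WTg, with a line at each median. The 66 cells of the cluster spread from 6.25% to 100%, while the median of both libraries was 100%.

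The cells of the cluster differed widely in balance. Of 66 cells with enough UMIs, 7 were under 25%, 12 between 25% and 50%, 24 between 50% and 75% and 23 at or above 75%. The quartiles were 46.5%, 63.3% and 81.3%. The SD over cells was 23.8 percentage points, against 9.05 from binomial counting of the same depths. Over these 66 cells of 1 library the share had Pearson r = 0.018 with depth and r = -0.54 (Spearman rho = -0.52) with log2 Atp4b, as a description. Counting every EL1 cell by its Atp4b UMIs alone, with no use of clusters, Ldhb stood at 2.22 CPM in 1030 cells with 0, 97.7 CPM in 37 cells with 1 to 9, 487 CPM in 39 cells with 10 to 99 and 683 CPM in 7 cells with 100 or more. The Ldha share in the same order was 99.5%, 83.4%, 56.5% and 49.3%, so more Atp4b went with more Ldhb. These groups also differed in depth, with medians of 26048.5, 25190, 35350 and 78204 UMIs. Of their cells 10, 21, 37 and 7 lay in the cluster, so they largely overlap with it.

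Several other steps were higher in this cluster, while the glucose carrier was lower. Slc2a1 had 10.5 CPM against 55.6 CPM in the other EL1 cells, 5.27-fold lower. Gpi1 had 420 against 137 CPM (log2 ratio 1.62), Eno1 321 against 127 CPM (1.34) and Pgk1 362 against 220 CPM (0.72). Pkm had 405 against 257 CPM (0.65). Ldha was also higher, at 603 against 462 CPM (log2 ratio 0.39, 0.32 to 0.45), which is 1.31-fold. The lower Ldha share of this cluster thus went with a higher Ldha level, not a lower one. Pfkl (40.02 against 40.7 CPM), Aldoa (368 against 342 CPM) and Hk2 (log2 ratio 0.27, -0.52 to 0.97) lay close to the other cells. At least 1.5-fold, 5 of 10 were higher, beside 21.2% of 14872 genes, and 1 lower, beside 26.3%. The family's median log2 ratio was 0.52 and that of all genes -0.0037.

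The 14 genes of the list for pyruvate entry into mitochondria were mostly higher there. They include regulators of either direction, among them the kinases Pdk1, Pdk2, Pdk3 and Pdk4, which inhibit pyruvate dehydrogenase. The count is thus not one of entry genes alone. Of 14, 11 were at least 1.5-fold higher, beside 21.2% of all genes, and 3 lower, beside 26.3%, with a median of 1.26 against -0.0037 over all genes. Mpc1 and Mpc2, which form the mitochondrial pyruvate carrier, had 377 against 132 CPM and 539 against 170 CPM. Pdha1, a subunit of pyruvate dehydrogenase, had 85.0 against 23.2 CPM, while the phosphatase genes Pdp1 and Pdp2, which activate that enzyme, were lower (-1.17 and -1.34).

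The carriers of lactate and pyruvate were also arranged differently. Slc16a7, a monocarboxylate carrier of high affinity, had 33.8 against 3.83 CPM (log2 ratio 3.14), and Slc16a1 had 56.8 against 21.2 CPM (1.42). Slc16a3, the carrier known for lactate export, had 1 UMI in the 75 cells of the cluster and 360 in the 1038 other EL1 cells. Part of these 360 came from the endothelial and fibroblast cluster described below. Gapdh, which makes NADH, had 2578 against 778 CPM (1.73). Hif1a, the oxygen-regulated subunit of HIF-1, had a log2 ratio of -2.05. The 19 genes of the hypoxia list, outside glycolysis, did not share its direction. At least 1.5-fold, 6 were higher, beside 21.2% of all genes, and 6 lower, beside 26.3%. Their median was 0.10, against -0.0037 over all genes.

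Across 16 groups of 1 cluster in 1 library, with at least 20 cells and a median of at least 10000 UMIs, an endothelial and fibroblast cluster of 22 EL1 cells held the highest level of 8 of the 10 genes. The exceptions were Hk2, highest in macrophage-like cells of WTg (88.7 CPM), and Ldhb, highest in the Atp4b-led cluster. Highest over median was 150 for Ldhb and 19.6 for Hk2, but between 3.08 and 8.21 for the other 8, so these 2 were the most restricted. After the Atp4b-led cluster, Ldhb stood at 19.6 CPM (11.8 to 30.6) in WTg and 18.1 CPM (8.29 to 34.4) in EL1 macrophage-like cells, then 12.8 CPM (4.70 to 27.9) in the endothelial and fibroblast cluster, and these neighbours overlapped in their intervals.

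**Figure D3:**
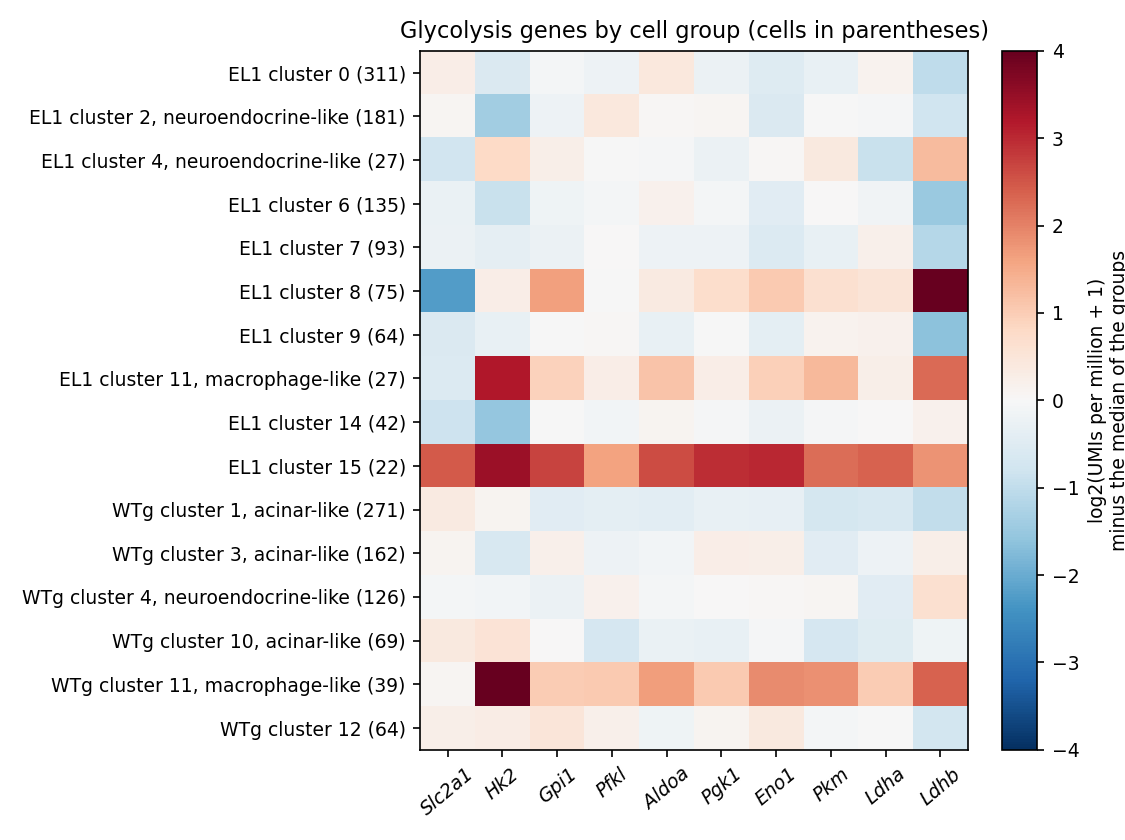
Level of each gene in 16 groups of 1 cluster in 1 library, as log2(CPM + 1) minus its median over the groups, with colour capped at 4 in either direction. Cluster 15 (endothelial and fibroblast markers) is highest for 8 of 10 genes and cluster 8 (led by Atp4b) for Ldhb.

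Levels in the endothelial and fibroblast cluster were several-fold above the other EL1 cells. Ldha had 2173 against 452 CPM (log2 ratio 2.26), Pgk1 1696 CPM (2.99), Eno1 1258 CPM (3.28) and Slc2a1 294 against 48.7 CPM (2.59). At least 1.5-fold, 9 of 10 were higher, beside 22.5% of genes, and 1 lower (Ldhb, 12.8 against 40.5 CPM), beside 18.6%. A single cell held 46.2% of the Ldha UMIs and 19.0% of all UMIs of the group, and Ldha was 1444 CPM without it. Without the cell that held most of each gene, Pgk1 was at 1328 CPM, Eno1 at 1146 CPM, Gpi1 at 667 CPM and Slc2a1 at 242 CPM, all still above the other EL1 cells. Hk2 depended most on 1 cell and went from 57.6 to 24.96 CPM.

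The levels above are those of the EL1 cells. The 12 WTg cells of this cluster were under the minimum of 20 for a comparison, and their values were lower, with Ldha at 649 CPM, Aldoa at 487 CPM, Pgk1 at 216 CPM and Eno1 at 202 CPM. Hk2 was near the EL1 level, at 55.9 CPM from 21 UMIs. Over all kept WTg cells, Ldha had 337, Aldoa 266, Pgk1 220 and Eno1 170 CPM. Pkm and Slc2a1 had 724 and 165 CPM in these 12 cells, against 227 and 66.3 CPM over all kept WTg cells. Several of the genes were thus above their library in WTg too.

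Genes of the hypoxia list, outside glycolysis, were high in the same cluster. Of 19, 19 were higher, beside 43.2% of all genes, and 15 at least 1.5-fold so, beside 22.5%. Their median log2 ratio was 2.20 against 0 over all genes. Car9, a carbonic anhydrase, had 710 against 85.2 CPM, Bnip3, a mitophagy receptor, 693 against 69.0 CPM, and Vegfa, the vascular growth factor, 279 against 60.8 CPM. Slc16a3 had 299 against 5.89 CPM, 50.7-fold higher.

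In macrophage-like cells (27 EL1, 39 WTg, medians of 18518 and 25655 UMIs, 10 of 10 markers raised) all 10 genes had the higher value in WTg. Of all genes tested in these cells, 46.8% did. Ldha went from 502 (EL1) to 847 CPM (WTg), a log2 ratio of 0.76 (0.55 to 0.97). Eno1 had 296 and 576 CPM (0.96, 0.69 to 1.23), and Pgk1 266 and 458 CPM (0.78, 0.50 to 1.08). Hk2 had 50.4 and 88.7 CPM (0.82, 0.16 to 1.52). These 4 had intervals above 0.

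Of the rest, Pfkl (0.81), Pkm (0.55) and Aldoa (0.53) also had intervals above 0, which makes 7 of 10. Slc2a1 (0.65, -0.14 to 1.501), Gpi1 (0.12, -0.19 to 0.43) and Ldhb (0.11, -1.10 to 1.44) did not. At least 1.5-fold, 6 of 10 were higher, beside 15.6% of 8322 genes, and 0 lower, beside 19.8%. The median was 0.70, against -0.053 over all genes. Gapdh had 1308 and 2121 CPM (0.70), and Slc16a3 34.3 and 76.4 CPM (1.16).

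Other values moved with this comparison. Mrc1, the mannose receptor, had 961 CPM (EL1) and 450 CPM (WTg), and Adgre1 363 and 231 CPM, whereas Cd68 had 1205 and 1619 CPM, so the markers were not alike in both libraries. Their part was not tested. The cell with the most UMIs of each gene held up to 33.3% of them in EL1 (Ldhb, 3 of 9 UMIs) and 31.8% of Pgk1, and with each such cell removed the median was 0.73. The median cell had 2.72 Ldha UMIs per 10000 in EL1 and 5.66 in WTg.

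Macrophage-like cells also held much of the Hk2. They gave 1.31% of EL1 and 2.94% of WTg UMIs but 14.0% and 33.6% of Hk2 UMIs, and their Hk2 level was 12.3-fold and 16.7-fold that of the other cells of the same library. Without macrophage-like cells and the endothelial and fibroblast cluster, the log2 ratio of Hk2 was 0.46 (0.10 to 0.81) rather than 0.72.

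**Figure D4:**
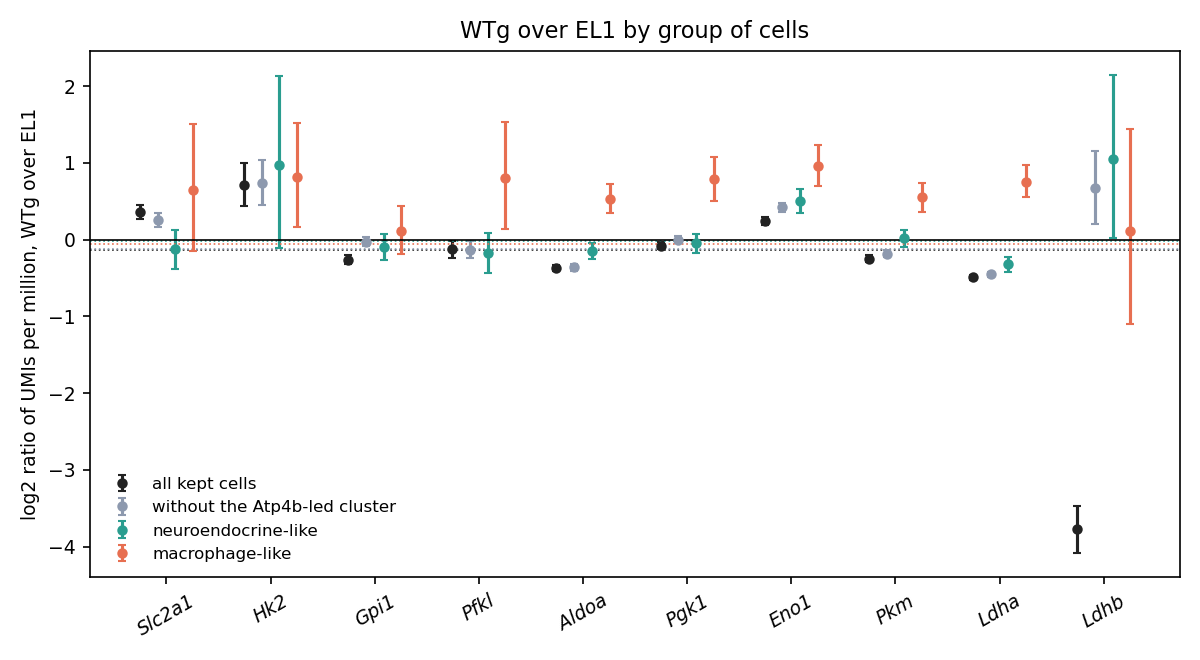
Log2 ratio of WTg over EL1 for each gene in all kept cells, in all cells without the Atp4b-led cluster, in macrophage-like and in neuroendocrine-like cells, with exact 95% intervals that cover counting error only and dotted lines at the medians of all genes. In macrophage-like cells all 10 values are above 0, beside 46.8% of all genes, whereas in all cells 3 are, beside 38.2%. In all cells Pgk1 turns from -0.077 to 0.037 under TMM scaling.

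Neuroendocrine-like cells (208 EL1, 133 WTg, medians of 20738.5 and 33013 UMIs) had 2 genes at least 1.5-fold higher in WTg (Hk2 and Ldhb), beside 14.9% of 12901 genes, and 0 lower, beside 13.1%. Their median was -0.072, against -0.013 over all genes. Ldha had 385 and 309 CPM (-0.32, -0.42 to -0.22) and Eno1 110 and 157 CPM (0.51, 0.35 to 0.67). Hk2 (2.22 and 4.36 CPM, -0.11 to 2.13 on the log2 scale) had an interval that reached 0. Ldhb had 13 and 24 UMIs, of which 14 WTg UMIs (58.3%) came from 1 cell, and its WTg level was 2.10 CPM without that cell, against 2.40 CPM in EL1.

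The 2 libraries filled this class from different clusters, with 181 of the EL1 cells in cluster 2 and 126 of the WTg cells in cluster 4. Within cluster 4 alone (27 EL1 and 126 WTg cells) Ldha had the opposite order, 226 CPM for EL1 and 309 CPM for WTg (0.45, 0.23 to 0.68), and Eno1 was level, at 159 and 158 CPM. For Ldha the class and this cluster thus differed in direction, and the part of cluster membership in the class values was not tested.

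Within each step the family shared the work with isozymes to different degrees, counted as the share of the summed UMIs of the isozymes compared, over all kept cells. Aldoa held 99.02% of Aldoa and Aldoc UMIs in EL1 and 98.8% in WTg, Pkm 99.3% and 98.98% of pyruvate kinase, and Eno1 94.7% and 96.3% of enolase. Slc2a1 held 98.2% and 98.1% of the UMIs of Slc2a1, Slc2a2, Slc2a3 and Slc2a4. Outside these 4, Slc2a5, the fructose carrier, had 62.8 and 80.8 CPM and Slc2a8 11.2 and 5.33 CPM.

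Phosphofructokinase and the hexokinase genes compared were mixed. Pfkl held 53.7% and 53.8% and Pfkp 40.04% and 40.1%, with Pfkp at 60.1% in the Atp4b-led cluster and Pfkl at 73.2% in macrophage-like cells of WTg. Of the summed UMIs of Hk1, Hk2, Hk3 and Hkdc1, Hk2 held 17.97% in EL1 and 29.9% in WTg, while Hk1, the housekeeping form, held 59.4% and 45.97%. Among these 4 genes Hk1 led in neuroendocrine-like cells, with 88.1% of 118 UMIs in EL1 and 80.5% of 113 UMIs in WTg, and in the Atp4b-led cluster, with 80.6% of 98 UMIs. In macrophage-like cells Hk2 led with 44.6% of 56 UMIs in EL1 and 54.8% of 157 UMIs in WTg, followed by Hk3, the form of blood cells, with 41.1% and 40.1%. In the endothelial and fibroblast cluster Hk2 held 58.7% of 46 UMIs, but 59.3% of its 27 UMIs came from 1 cell. Hkdc1 had its highest share, 34.6%, in cluster 0 of EL1.

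**Figure D5:**
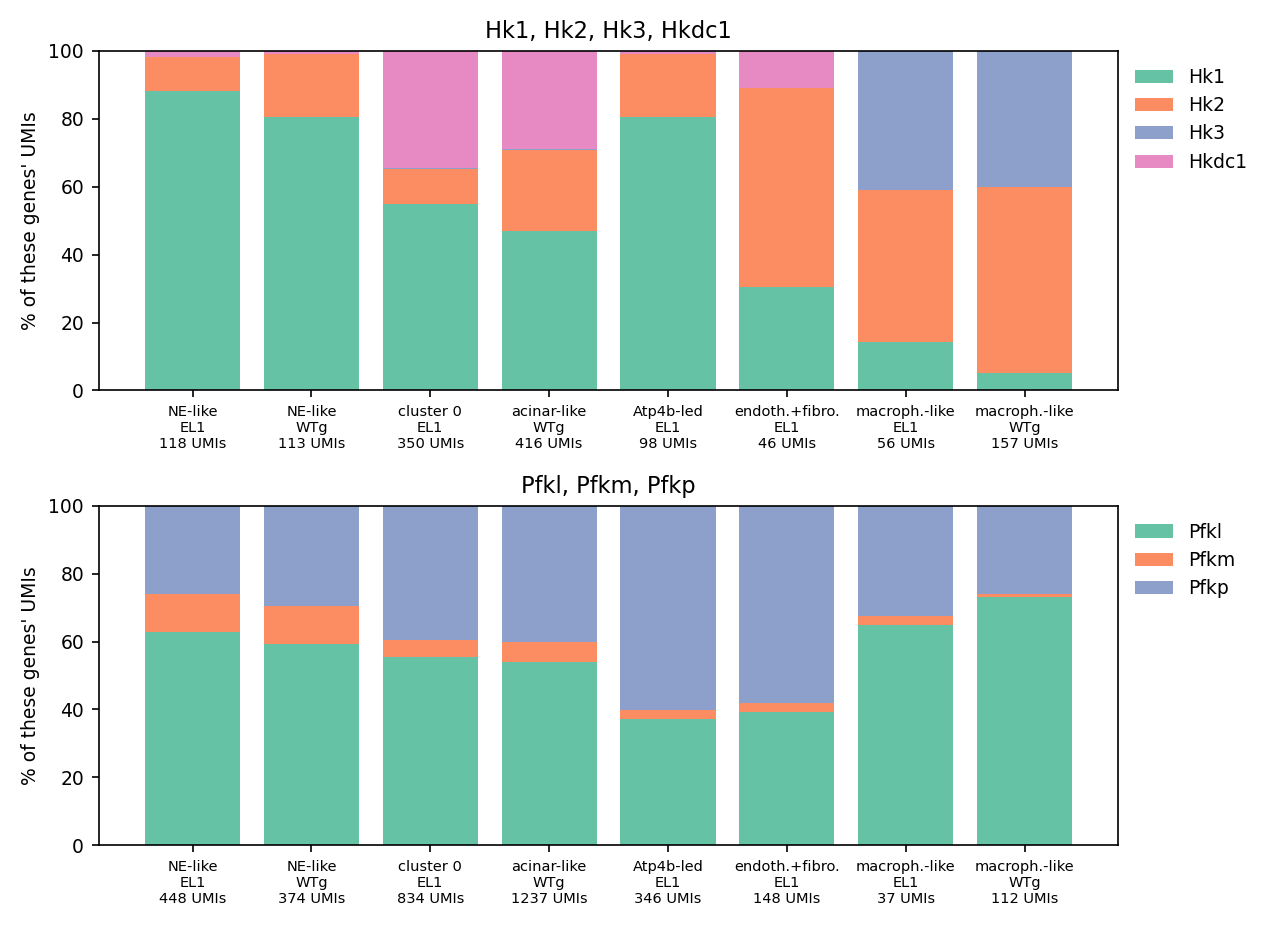
Share (percent) of the summed UMIs of Hk1, Hk2, Hk3 and Hkdc1 (top) and of Pfkl, Pfkm and Pfkp (bottom) held by each gene in 8 groups of cells, with the UMIs of each group under its bar. Among the genes of the top panel Hk2 leads in macrophage-like cells and Hk1 in neuroendocrine-like cells of both libraries.

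Other genes of the pathway were read against the same background over all kept cells, 15.7% of genes at least 1.5-fold higher in WTg and 17.1% lower. Among 19 other glycolysis enzymes with at least 10 UMIs, 3 were higher and 2 lower by that fold (median -0.19), close to the background, including Pfkfb3, an activator of phosphofructokinase through fructose-2,6-bisphosphate (0.76), Hk3 (25 and 65 UMIs, 1.58), Tigar (-0.80) and Bpgm, which makes 2,3-bisphosphoglycerate (-0.67). Macrophage-like cells, with 1.31% of EL1 and 2.94% of WTg UMIs, held 23 of the 25 and 63 of the 65 Hk3 UMIs. Their part in the Hk3 ratio was not tested. Tpi1 (-0.56) and Pgam1 (-0.45) were lower, and Gapdh had -0.10. Of 9 carriers 2 were higher and 4 lower. Slc16a3 (-0.59) and Bsg (-0.61), its chaperone, were lower, while Slc16a7 (0.92) was higher and Slc16a1 had 0.082. The EL1 level of Slc16a3, 9.51 CPM, included the endothelial and fibroblast cluster. EL1 cells outside that cluster lay near the 6.30 CPM of WTg, but the WTg value still included its 12 cells of that cluster. In macrophage-like cells Slc16a3 was higher in WTg. The part of either group of cells in the Slc16a3 ratio was not tested.

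The medians of the lists around glycolysis lay on either side of the all-gene median of -0.14, and their counts are given with the same background of 15.7% higher and 17.1% lower. Of 14 genes for pyruvate entry 0 were at least 1.5-fold higher and 3 lower (median -0.34), with Pdk4, a kinase that inhibits pyruvate dehydrogenase, at -2.31. Of 6 gluconeogenesis genes 1 was higher (Fbp1, 18 and 97 UMIs, 2.63) and 2 lower. Of 8 pentose phosphate genes 0 were higher and 1 lower (Rpia, -0.76), and Tkt had 0.51. Of 19 hypoxia genes 2 were higher (Ndrg1 and Ddit4, both 0.83) and 3 lower, among them Bnip3 (-0.81) and Ankrd37 (-0.69), whereas Hif1a had 0.27 and Vegfa 0.35.

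Over 20 groups of 1 cluster in 1 library, the genes outside the family whose level, as log2(CPM + 10), was most like that of Ldha were Fam162a (Pearson r = 0.96), Bnip3l (0.93), Tpi1 (0.91), Prelid1 (0.89) and Esd (0.88). For Ldhb they were Klk1b8 (0.92), Atp4b (0.91), Atp4a (0.89), Osbpl1a (0.87) and Dusp4 (0.84). Ldhb stood at 453 CPM in the Atp4b-led cluster and at 19.6 CPM or less in the other groups. Its values thus rest largely on that 1 group, of which Klk1b8, Atp4b and Atp4a are leading genes. Within the family Pgk1 was most like Ldha (0.94) and Slc2a1 least (0.24), and Ldhb had 0.38. The groups shared 2 libraries and differed in depth, so these are descriptions.

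The genes lie apart in the genome, in GENCODE M21 on GRCm38. Ldha is at chr7:46841475-46855627 and Ldhb at chr6:142490249-142507957, and Hk2 at chr6:82725025-82774454. Gpi1 (chr7:34201330-34230336) and Aldoa (chr7:126795234-126800751) also lie on chromosome 7, and Slc2a1 (chr4:119108711-119137983) and Eno1 (chr4:150236721-150248879) on chromosome 4. Pfkl is at chr10:77986947-78010083, Pkm at chr9:59656368-59679375 and Pgk1 at chrX:106187100-106203699. All are protein-coding genes and the counts sum over the whole gene. Near copies took few UMIs, with Eno1b at 35 and 34 and Pgk2 at 0 and 1.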

How the data were processed

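Single-cell suspensions of pancreatic tumours were made into 10x Chromium 3′ libraries, 1 from EL1 and 1 from WTg mice. The deposited matrices hold whole-number UMI counts, produced by the authors with Cell Ranger (6.0.2 in the file header). The submitters' processing notes name GRCm38, R 4.1 and Seurat 4.0.5. The annotation and the treatment of intronic reads are not given in the sources used here. A deposited dense count table held 1471 and 1346 of the barcodes, and 0 of its values for 9 of the genes differed.

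Cells were filtered as in the results, scaled to 10000 UMIs, logged and clustered with scanpy 1.11.5 (2000 variable genes, 30 components, 15 neighbours, Leiden resolution 1, leidenalg 0.10.2), with the glycolysis, pathway, isozyme and cell cycle genes left out and no correction between libraries. A cluster was named "-like" from at least 3 raised markers (log2 fold of at least 1 after adding 10 CPM, in at least 10% of its cells), and Gif had no match. Scrublet called 4 doublets in each library, which were kept. UMIs were summed per library or group and given as CPM with exact Poisson intervals, ratios with exact conditional binomial intervals and shares with Clopper-Pearson intervals. For a group at 0 UMIs a floor of 3 counts was used (0.0790 CPM in EL1 and 0.0909 CPM in WTg over all kept cells). Groups under 20 cells gave no comparison, and genes needed at least 10 UMIs. TMM came from edgeR 4.0.16. The intervals were tested on simulated data. The genes, lists and tests were chosen with earlier results of these data known. Named by rule were all 10 genes, Gapdh, Tpi1, Pgam1, Slc16a1, Slc16a3, Hif1a, Vegfa, per list the 2 highest and 2 lowest ratios among genes with at least 50 UMIs, isozymes with at least 1% of a step, and the 5 genes most like Ldha and Ldhb. Some genes and isozymes of the lists are not reported here. Other genes, and the values within cluster 4, were named after their values were seen.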

Additional observations from a re-analysis of the deposited data

Results flagged for a closer look

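Ldha and Aldoa had opposite orders in 2 cell classes. The Ldha log2 ratio of WTg over EL1 was 0.76 in macrophage-like and -0.32 in neuroendocrine-like cells, and that of Aldoa was 0.53 and -0.15. Within cluster 4, which held most neuroendocrine-like cells of WTg, Ldha was at 0.45 and Aldoa at -0.054. The difference between classes was not tested, since each group had 1 library.

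Barcodes that the cell filter removed also held Ldhb. In 508 removed EL1 barcodes Ldhb stood at 24.8 CPM (30 UMIs, 16.7 to 35.4), above the 2.48 CPM of 3 counts, with an Ldha share of 79.3% (71.8 to 85.6). Of the 8 of these barcodes with an Ldhb UMI, 5 also had an Atp4b UMI. In 583 removed WTg barcodes it stood at 2.15 CPM (4 UMIs, 0.585 to 5.49), above the 1.61 CPM of 3 counts.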

How the results depend on the processing

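No paired analysis was possible because the groups had 1 library each and no result came from a test. Every alternative planned was run, and those marked here as added were chosen after seeing the data. The results depended most on the Atp4b-led cluster. Without it (added), the Ldhb log2 ratio was 0.67 in place of -3.77, which follows from its 95.8% of EL1 Ldhb UMIs, Pgk1 was 1.28e-05 in place of -0.077, Ldha -0.45, the family's median -0.014 in place of -0.19, its difference from all genes 0.10 in place of -0.054, and the EL1 Ldha share 99.6%. Removing EL1 cells with at least 10 Atp4b UMIs (added) gave Ldhb -1.001, Ldha -0.45 and a share of 98.7%, and using them in place of the cluster gave 54.2% there. TMM gave Pgk1 0.037, Ldha -0.38 and a median of -0.075, and CPM over UMIs of genes outside the acinar and mitochondrial ones gave Ldha -0.44. Without macrophage-like cells and the endothelial and fibroblast cluster (added), Ldhb was -4.11. The stricter cell filter gave Ldha shares of 93.4% in EL1, 59.7% in the cluster, and 99.9% in neuroendocrine-like cells of both libraries, whose family median was -0.32 in place of -0.072. The WTg neuroendocrine-like share of 98.4% was 97.6% at resolution 0.5, 97.5% at resolution 2, 99.1% with genes centred and 98.99% with all genes in clustering. Without the cell with most Ldhb (added) the cluster's share was 59.2%. A minimum of 100 UMIs gave 1210 genes higher and 1709 lower, in place of 2545 and 2758. The macrophage-like median stayed between 0.65 and 0.73 under the alternatives run.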
